A study of Mus musculus with 2 samples.

Results

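Leukocyte integrins were followed as 10 genes of the mRNA count matrix, Itgax, Itgam, Itgal, Itga4, Itga6, Itgae, Itgav, Itgb1, Itgb2 and Itgb7, out of 25909 genes in all. They were chosen by name as integrin subunits that leukocytes carry, with earlier results of these data known, and Itgax was set against the other members. The cells were CD45.2+ Lin- CD11b+ liver leukocytes of 4 mice, 1 mouse per group. An Egr2fl/fl mouse and a Lyz2Cre/+.Egr2fl/fl mouse were fed normal diet (ND), and 1 mouse of each genotype was fed CDA-HFD, a high-fat diet with defined amino acids and without choline, for 7 weeks. Both genotypes carry the loxP-flanked Egr2 alleles, and only the Lyz2Cre/+.Egr2fl/fl mice also carry Cre, which is expressed from the Lyz2 locus of myeloid cells, so Egr2 can remain in cells that do not use that locus. CD11b is the protein of Itgam, one of the members, so the sort itself kept cells by an integrin on their surface. Cells without CD11b were removed in both genotypes, so Itgam is a limited reference for Itgax. The Lin antibodies removed cells with SiglecF, CD90.2, B220 or NK1.1.

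Integrins are adhesion receptors made of 1 alpha and 1 beta subunit, and both are needed for the pair to reach the cell surface. On leukocytes the beta2 subunit joins the alpha subunits of the CD11 group, while beta1 and beta7 join alpha4 and others. The pairs hold cells to endothelium, matrix and complement-coated particles, and their binding is switched on from inside the cell by talin and kindlin. Itgax encodes CD11c, which is widely used as a surface marker of dendritic cells and is also carried by macrophages of inflamed tissue.

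Itgax, Itgam and Itgal lie near each other on chromosome 7 of GRCm38. Itgax occupies chr7:128129547-128150657 on the plus strand, Itgam chr7:128062640-128118491 and Itgal chr7:127296260-127335138, both also on the plus strand. The 250 bases before the RefSeq start sites of Itgax and Itgam (GRCm38.p6) are shown because the comparison of these neighbours carries the main contrast. Capitals mark GAGGAA, a core that PU.1 and related factors of myeloid cells can bind, on either strand. The Itgax window is chr7:128129300-128129549 and the Itgam window chr7:128062390-128062639, both on the plus strand.
Itgax: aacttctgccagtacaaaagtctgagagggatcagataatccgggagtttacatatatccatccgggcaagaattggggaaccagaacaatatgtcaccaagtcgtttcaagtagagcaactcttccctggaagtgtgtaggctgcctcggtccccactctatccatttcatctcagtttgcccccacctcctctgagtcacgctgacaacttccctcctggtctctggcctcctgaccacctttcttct
Itgam: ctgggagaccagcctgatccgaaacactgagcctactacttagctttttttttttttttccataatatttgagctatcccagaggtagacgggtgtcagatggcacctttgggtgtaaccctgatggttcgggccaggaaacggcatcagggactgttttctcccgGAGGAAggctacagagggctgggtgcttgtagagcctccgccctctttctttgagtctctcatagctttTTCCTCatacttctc
GAGGAA, or its reverse complement, was present in 2 places before Itgam and in none before Itgax, and 23.3% of the 32851 promoters of this length held at least 1 match. Of the 6 members with a RefSeq entry (Itgax, Itgam, Itga4, Itgav, Itgb1 and Itgb7), Itgav also had 2 matches and Itgb1 had 1. The longer GAGGAAGT, which contains GAGGAA and so overlaps it, occurred in 2.44% of all promoters and among the members only before Itgav. The letters GCGNGGGCG, a core bound by Egr proteins, were found in 4.70% of all promoters and in 0 of the 6 members' windows.

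The 15384 cells kept had between 3115 and 86395 counts each, 1590 to 6186 cells came from each mouse, and the summed counts of a mouse ran from 27840300 to 90124521. Levels are given as CPM, the counts of a gene divided by the counts of all genes in the same mouse and cell class and scaled to 1000000. The brackets after a level or ratio hold exact 95% intervals that cover counting error only. Each group was a single mouse without a replicate, so mice were not tested against each other, and reads of 1 cell are not independent draws. Cells were put into classes by scores over marker lists that held no integrin and no Egr gene, and the classes are called macrophage-like and so on because they rest on these markers alone. Every class named here had more of its own markers than of any other class among its 10 leading genes. Egr2, the targeted gene, was at 13.3 and 5.85 CPM in the Egr2fl/fl and the Lyz2Cre/+.Egr2fl/fl mouse on ND, and at 49.4 and 18.2 CPM on CDA-HFD. Its genotype ratio, the CPM of the Lyz2Cre/+.Egr2fl/fl mouse over that of the Egr2fl/fl mouse, was 0.212 (0.190 to 0.236) in macrophage-like cells and 0.945 (0.812 to 1.10) in cDC2-like cells on CDA-HFD. On ND it was 0.0795 (0.0284 to 0.180) in macrophage-like cells, from 92 and 6 counts, and 1.63 in cDC2-like cells, with an interval above 1, at 40.6 and 66.4 CPM from 77 and 103 counts. Egr2 was therefore lower with Cre in macrophage-like cells on both diets, and not in those like conventional dendritic cells of type 2, where the CDA-HFD interval held 1. mRNA of the floxed locus outside the deleted part may still be counted.

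Over all cells Itgax was lower in the Lyz2Cre/+.Egr2fl/fl mouse than in the Egr2fl/fl mouse on both diets, while Itgam, its neighbour on the chromosome, was close to equal on CDA-HFD (1.01, or 0.958 after thinning) and higher on ND (1.18). Itgax was at 61.1 CPM (58.4 to 63.9) in the Egr2fl/fl mouse and 48.9 CPM (46.4 to 51.6) in the Lyz2Cre/+.Egr2fl/fl mouse on ND. On CDA-HFD it was at 156 CPM (153 to 159) and 106 CPM (103 to 108). The intervals of the genotypes did not overlap on either diet, and the genotype ratio was 0.801 (0.747 to 0.858) on ND and 0.676 (0.659 to 0.694) on CDA-HFD. In sums over all cells, fewer cells of a type that uses the gene and less of its mRNA per cell cannot be told apart. Class shares differed between the mice. When each class was weighted as in the Egr2fl/fl mouse of the same diet, the ratio of Itgax became 0.712 on CDA-HFD and 1.06 on ND, so on ND the direction of the all-cell value was lost.

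The level of Itgax differed more between classes than between mice. In the Egr2fl/fl mouse on CDA-HFD it was highest in cDC2-like cells, at 288 CPM (275 to 302), followed by mature dendritic cell-like cells at 190 CPM (171 to 210.5), Ly6Clo monocyte-like cells at 178 CPM (164 to 193) and macrophage-like cells at 155 CPM (151 to 159.6). Neutrophil-like cells had 83.7 CPM (74.9 to 93.3) and Ly6Chi monocyte-like cells 21.5 CPM (19.2 to 24.0). Mature dendritic cell-like and Ly6Clo monocyte-like cells were neighbours whose intervals overlapped, and the other neighbours in this order did not overlap. The 39 cDC1-like cells of that mouse were at 267 CPM (234 to 303), beside the cDC2-like cells. Kupffer cell-like cells, the resident macrophages, were numerous only on ND and had 5.12 CPM (4.16 to 6.24) and 3.47 CPM (2.68 to 4.41) in the Egr2fl/fl and the Lyz2Cre/+.Egr2fl/fl mouse, the lowest of the classes. In the Lyz2Cre/+.Egr2fl/fl mouse on CDA-HFD the order was the same except that macrophage-like cells, at 69.5 CPM (66.7 to 72.4), came below neutrophil-like cells, at 88.9 CPM (79.0 to 99.7). There too the intervals of mature dendritic cell-like and Ly6Clo monocyte-like cells, at 141 CPM (122 to 161) and 118 CPM (108 to 129), overlapped. The macrophage-like cells thus stood above the neutrophil-like cells in one mouse and below them in the other. The 2028 cells that no list claimed also carried Itgax, at 216 and 220.2 CPM on ND and 250.4 and 239.6 CPM on CDA-HFD in the Egr2fl/fl and the Lyz2Cre/+.Egr2fl/fl mouse, and Itgax was among their 10 leading genes.

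**Figure D1:**
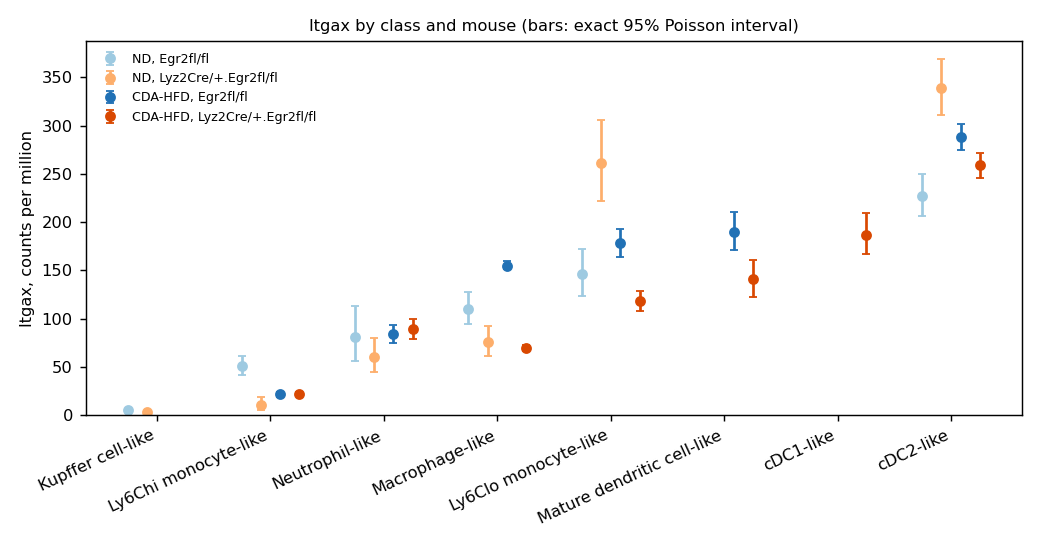
Itgax in CPM (vertical axis) by marker-gated class (horizontal axis) in the 4 mice, with exact 95% Poisson bars for counting error. In macrophage-like cells the CDA-HFD-fed Egr2fl/fl mouse stands at 155 CPM and the CDA-HFD-fed Lyz2Cre/+.Egr2fl/fl mouse at 69.5 CPM, while in Kupffer cell-like cells both ND-fed mice lie near 0.

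Macrophage-like cells showed the lowest genotype ratio of Itgax on CDA-HFD among the 6 classes with enough cells. Their level was 155 CPM in the Egr2fl/fl mouse (1474 cells) and 69.5 CPM in the Lyz2Cre/+.Egr2fl/fl mouse (1630 cells), a ratio of 0.448 (0.426 to 0.470). On ND the same class, with 108 and 91 cells, was at 110.2 CPM (94.3 to 128) and 75.4 CPM (61.1 to 92.1), a ratio of 0.684 (0.527 to 0.884). On both diets the level was lower with Cre. Other markers of this class also differed between the ND-fed Egr2fl/fl and Lyz2Cre/+.Egr2fl/fl mice. The 8 Kupffer cell markers summed to 261 and 580.4 CPM, and the 9 T or NK cell markers to 0 and 46.3 CPM. The 7 cDC2 markers summed to 124 and 62.8 CPM, and the 7 mature dendritic cell markers to 26.4 and 7.85 CPM. Their part in the ND ratio was not tested. Ly6Clo monocyte-like cells, at 178 and 118 CPM on CDA-HFD, had a ratio of 0.664 (0.589 to 0.748), and mature dendritic cell-like cells, at 190 and 141 CPM, had 0.741 (0.623 to 0.879). In these Ly6Clo monocyte-like cells the mature dendritic cell markers summed to 168 and 96.0 CPM and the neutrophil markers to 1077 and 827 CPM. The cDC2 markers were at 37.4 and 40.8 CPM there, and the part of these markers was not tested. On CDA-HFD cDC2-like cells were close to equal, with an Itgax ratio of 0.898 (0.839 to 0.961). For Ly6Chi monocyte-like cells (1.02, 0.876 to 1.19) and neutrophil-like cells (1.06) the interval held 1. Egr2 itself had low ratios in both of these classes on CDA-HFD, 0.336 (0.283 to 0.398) and 0.0553 (0.0272 to 0.101), so a lower Egr2 level came with a lower Itgax level in some classes and not in others. On ND the Itgax ratio was above 1 in cDC2-like cells, at 1.49 (1.31 to 1.70), and in Ly6Clo monocyte-like cells, at 1.79 (1.42 to 2.27). In the latter cells the 7 cDC2 markers summed to 18.6 and 89.9 CPM and the 9 T or NK cell markers to 79.5 and 0 CPM in the Egr2fl/fl and the Lyz2Cre/+.Egr2fl/fl mouse on ND. In the cDC2-like cells of these mice the 7 mature dendritic cell markers summed to 40.1 and 115 CPM, and the 9 T or NK cell markers to 75.5 and 30.9 CPM. The part of these markers in the ratios was not tested. The ND ratio of Itgax was 0.215 (0.111 to 0.383) in Ly6Chi monocyte-like cells, from 111 and 13 counts. There the 5 interferon response genes summed to 823 and 204 CPM and the 9 T or NK cell markers to 0.457 and 63.9 CPM.

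Both the share of macrophage-like cells with an Itgax count and the counts in such cells were lower in the Lyz2Cre/+.Egr2fl/fl mouse on CDA-HFD. An Itgax count was found in 60.2% (57.6 to 62.7) of the macrophage-like cells of the Egr2fl/fl mouse and in 35.0% (32.7 to 37.4) of those of the Lyz2Cre/+.Egr2fl/fl mouse. Because median depth differed, at 20838 and 18318 counts per cell, each cell was also thinned to 3000 counts, which gave 28.4% and 16.3%. Kupffer cell-like cells of the ND-fed mice, the class with the least Itgax, had 1.43% and 0.956% after thinning at median depths of 25630 and 23220 counts, so the shares in macrophage-like cells were above this level in both mice. Cells with a count held 5.79 counts on average in the Egr2fl/fl mouse and 4.06 in the Lyz2Cre/+.Egr2fl/fl mouse (1.74 and 1.49 after thinning). Cells with at least 11 counts made up 9.23% and 2.15%, and cells with none 39.8% (37.3 to 42.4) and 65.0% (62.6 to 67.3). Macrophage-like cells gave 38.6% of all Itgax counts of the Egr2fl/fl mouse and 24.3% of those of the Lyz2Cre/+.Egr2fl/fl mouse, while giving 38.8% and 36.9% of the counts of all genes.

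**Figure D2:**
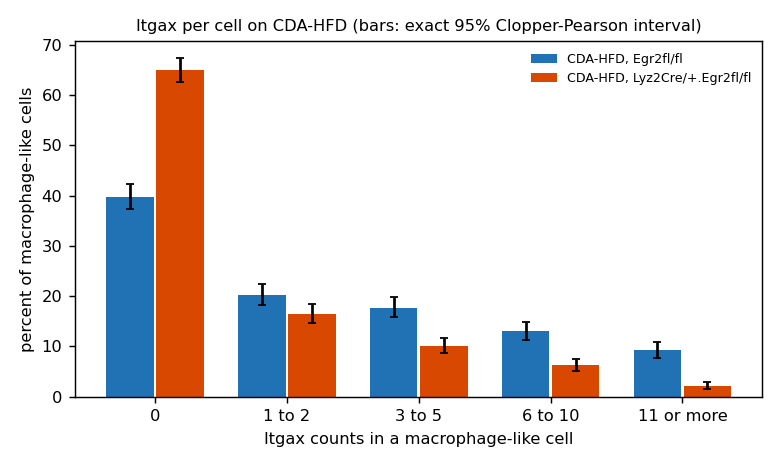
Percent of macrophage-like cells (vertical axis) with 0, 1 to 2, 3 to 5, 6 to 10, or 11 or more Itgax counts (horizontal axis) in the CDA-HFD-fed mice, with exact 95% binomial bars. Cells with 0 counts make up 39.8% in the Egr2fl/fl mouse and 65.0% in the Lyz2Cre/+.Egr2fl/fl mouse, and every class of cells with counts is smaller in the latter.

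Markers of other cell types also differed between the macrophage-like cells of the CDA-HFD-fed mice. The 8 Kupffer cell markers summed to 366 CPM in the Egr2fl/fl mouse and 548 CPM in the Lyz2Cre/+.Egr2fl/fl mouse, 7 of them higher in the latter, and the 7 Ly6Chi monocyte markers to 731 and 902 CPM, all 7 higher. The 9 neutrophil markers summed to 266 and 394 CPM, with 8 higher. The 8 Ly6Clo monocyte markers summed to 1364 and 1018 CPM although 5 of them were higher in the Lyz2Cre/+.Egr2fl/fl mouse. The 7 mature dendritic cell markers were lower, at 53.3 and 20.3 CPM with 0 of 7 higher and 1 at 0 in that mouse. So was a short list of 6 hLAM (hepatic lipid-associated macrophage) markers taken from the study, at 4344 and 3966 CPM with 1 higher. The 7 cDC2 markers were at 48.5 and 42.8 CPM with 4 of 7 higher, and the 9 T or NK cell markers at 4.87 and 1.68 CPM with 2 higher. Higher sums in the Lyz2Cre/+.Egr2fl/fl mouse were also found for 6 moKC (monocyte-derived Kupffer cell) markers taken from the study (701 and 916 CPM, 5 of 6 higher), the 5 interferon response genes (165 and 214 CPM, 5 of 5), the 5 proliferation genes (53.5 and 87.9 CPM, 5 of 5), the 5 B cell markers (30.3 and 43.2 CPM, 5 of 5) and the 6 endothelial cell markers (17.8 and 27.2 CPM, 5 of 6). The 6 cDC1 markers summed to 179 and 198 CPM (4 higher), the 6 plasmacytoid dendritic cell markers to 31.5 and 40.3 CPM (2 higher), the 5 hepatocyte markers to 18.3 and 21.1 CPM (2 higher) and the 3 basophil markers to 0.877 and 0.601 CPM (0 higher). Apart from 2 T or NK cell markers, 1 hepatocyte marker and 1 basophil marker, none of the markers of these lists was at 0 in the Egr2fl/fl mouse, and the part of these cells or their RNA in the Itgax value was not tested. Macrophage-like cells were also split by these short hLAM and moKC lists, which are not the longer signatures that the study scored cells with. The cells with the higher hLAM score had Itgax at 161 and 72.2 CPM, a ratio of 0.447 (0.425 to 0.471). The cells with an at least equal moKC score, 150 and 223 in number, had 99.9 and 51.5 CPM, a ratio of 0.515 (0.433 to 0.613). Itgax was thus lower with Cre on both sides of a split at which 278 of 3104 cells lay within 0.05 of the limit, and which is a range of a score, not a pair of cell types.

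Itgam, the alpha subunit of Mac-1 and the gene of the sorted CD11b, was close to equal between the genotypes over all cells and in macrophage-like cells on CDA-HFD, and higher with Cre in some other groups. It was at 96.4 and 114 CPM on ND and at 246 and 249 CPM on CDA-HFD over all cells in the Egr2fl/fl and the Lyz2Cre/+.Egr2fl/fl mouse, with a CDA-HFD ratio of 1.01 (0.991 to 1.03). In macrophage-like cells on CDA-HFD it was at 196 and 206 CPM, a ratio of 1.05 (1.02 to 1.09). Its highest level was in neutrophil-like cells, at 566 and 514 CPM on CDA-HFD, and its lowest ratio among the CDA-HFD classes was there, 0.909 (0.853 to 0.969). On ND it was higher with Cre in Ly6Chi monocyte-like cells, at 251 and 409 CPM, a ratio of 1.63 (1.44 to 1.84), the class in which Itgax was at 50.8 and 10.9 CPM. In the macrophage-like cells of the moKC range the ratio of Itgam was 1.56 (1.35 to 1.79), from 92.0 and 143 CPM.

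Itgal encodes the alpha subunit of LFA-1, which binds ICAM proteins on other cells. Over all cells it was at 284 and 285 CPM on ND and at 201 and 181 CPM on CDA-HFD, with ratios of 1.00 (0.975 to 1.04) and 0.902 (0.883 to 0.921). It was highest in Ly6Clo monocyte-like cells in each mouse, from 479 CPM in the Lyz2Cre/+.Egr2fl/fl mouse on CDA-HFD to 886 CPM in the Egr2fl/fl mouse on ND. In macrophage-like cells it was higher with Cre on ND, at 184 and 265 CPM (1.45, 1.23 to 1.70), and lower on CDA-HFD, at 183 and 155 CPM (0.846, 0.815 to 0.879), a difference between the diets that was not tested.

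Itgb2, the beta subunit that CD11a, CD11b and CD11c share, had the next lowest ratio after Itgax in the macrophage-like cells of the CDA-HFD-fed mice, below those of Itgb7 (0.831) and Itgal (0.846), but not after thinning, when Itgb2 was at 0.821 and Itgb7 at 0.597. In those cells it was at 294 and 243 CPM on ND and at 409 and 305 CPM on CDA-HFD in the Egr2fl/fl and the Lyz2Cre/+.Egr2fl/fl mouse, with a CDA-HFD ratio of 0.747 (0.728 to 0.766). Over all cells it was at 373 and 334 CPM on CDA-HFD, 0.895 (0.881 to 0.910). In the cells of the hLAM range the ratio was 0.735, and in those of the moKC range 0.998, from 252 and 251 CPM. Its ratio was close to 1 in Ly6Chi monocyte-like (1.02), Ly6Clo monocyte-like (0.974) and cDC2-like cells (1.06). Per cell, after thinning, Itgb2 was found in 63.5% of the macrophage-like cells with Itgax and in 57.6% of those without it in the Egr2fl/fl mouse, and in 59.6% and 51.4% in the Lyz2Cre/+.Egr2fl/fl mouse.

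Itga6, the laminin-binding alpha6 subunit, was the member that was more than 1.5-fold higher in the Lyz2Cre/+.Egr2fl/fl mouse on both diets. Over all cells it was at 2.37 and 5.24 CPM on ND, from 76 and 146 counts, and at 15.0 and 24.4 CPM on CDA-HFD. The ratios were 2.21 (1.66 to 2.96) and 1.63 (1.52 to 1.75). It was mostly a gene of the macrophage-like cells, which held 81.9% and 80.2% of its counts on CDA-HFD, and it was among the 10 leading genes of that class. There it was at 21.3 and 66.8 CPM on ND, from 33 and 85 counts, and at 31.6 and 53.0 CPM on CDA-HFD, with ratios of 3.14 (2.08 to 4.85) and 1.68 (1.55 to 1.81). The ND-fed macrophage-like cells also differed in other markers, with Kupffer cell markers at 261 and 580.4 CPM, and their part in the ratio was not tested. In Ly6Chi monocyte-like cells on CDA-HFD Itga6 was also higher, at 4.48 and 8.66 CPM, 1.93 (1.43 to 2.63). Itgax and Itga6 thus differed between the CDA-HFD-fed mice in opposite directions within the same macrophage-like cells.

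Itga4, the alpha4 subunit of the receptors for VCAM-1 and MAdCAM-1, showed small differences on CDA-HFD, as did Itgb1. Itga4 was at 199 and 213 CPM over all cells on CDA-HFD (1.07, 1.05 to 1.09), and at 105 and 118 CPM in macrophage-like cells (1.12, 1.07 to 1.18). Itgb1, the beta1 subunit, was at 193 and 207 CPM over all cells and at 193 and 209 CPM in macrophage-like cells, with ratios of 1.07 and 1.08. Itgb7, the beta7 subunit that joins alpha4 or alphaE, was high in cDC2-like cells, at 222 and 241 CPM on CDA-HFD, and low in macrophage-like cells, at 9.61 and 7.99 CPM. Over all cells its ratio was 0.934 on CDA-HFD and 0.681 (0.641 to 0.723) on ND, where it was at 91.2 and 62.1 CPM, and 0.871 on ND with equal class shares. In Kupffer cell-like cells on ND, which were too few on CDA-HFD to compare, it was at 48.6 and 24.6 CPM (0.507, 0.453 to 0.567). In the macrophage-like cells of the moKC range on CDA-HFD it was at 9.96 and 2.78 CPM (0.279, 0.131 to 0.555). Itgav, the alphaV subunit that binds RGD sequences of matrix proteins and of latent TGF-beta, was at 75.5 and 85.0 CPM in macrophage-like cells on CDA-HFD (1.13, 1.07 to 1.19).

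Itgae, which encodes CD103 and pairs with beta7 to bind E-cadherin, had few counts and in 3 of the 4 mice lay mostly in the cDC1-like cells. Its all-cell counts were 187 and 114 on ND and 80 and 204 on CDA-HFD in the Egr2fl/fl and the Lyz2Cre/+.Egr2fl/fl mouse, and the ratios were 0.701 (0.551 to 0.890) and 2.41 (1.85 to 3.16). The cDC1-like cells held 82.4% and 89.5% of these counts on ND and 41.2% and 78.9% on CDA-HFD. They numbered 47 and 18 on ND and 39 and 64 on CDA-HFD, so the mouse with more of these cells had more Itgae on each diet. Within them Itgae was at 113 and 166 CPM on ND and at 36.8 and 93.1 CPM on CDA-HFD. Outside them it lay between 0.441 and 1.08 CPM in the 4 mice. Weighting the classes alike brought the CDA-HFD ratio from 2.41 to 1.55 and the ND ratio from 0.701 to 1.29. After each cell was thinned to 3000 counts the CDA-HFD ratio was 1.30.

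The members were read against all genes with at least 100 counts over the mice compared, since a 1.5-fold difference between 1 mouse and another was not rare. On CDA-HFD over all cells 5.19% of 14927 genes were past 1.5-fold, 1.77% lower and 3.42% higher in the Lyz2Cre/+.Egr2fl/fl mouse, and of the 10 members Itga6 and Itgae were past it, both higher. After thinning Itgae was not past it, at 1.30. Itgax at 0.676 lay just short of that fold, and past it with TMM scaling (0.658) or where the own hashtag made up 90% or more of a cell's hashtag counts (0.653), and it was the 286th lowest ratio of the 14927 genes. In macrophage-like cells 5.58% of 11986 genes were past 1.5-fold, 2.20% lower and 3.38% higher, and of 9 members Itgax was lower and Itga6 higher. After thinning the highest of these members was at 1.49, so Itga6 was then short of the fold. Itgax had the 46th lowest ratio there. Among the 8278 genes with at least 500 counts Itgax was the 14th lowest and Egr2 the 3rd lowest, and Itga6 was the 43rd highest. The median log2 ratio of the 9 members was 0.07, beside 0.04 for all genes. On ND 8.02% of 12723 genes over all cells and 15.6% of 3809 genes in macrophage-like cells were past the fold, where 1 of 10 and 1 of 8 members were, Itga6 each time. Apart from Itgax and Itga6, and from Itgae with its few counts, no member with at least 100 counts was past 1.5-fold between the genotypes over all cells or in macrophage-like cells on either diet in the main setting. Itgb7 was past it in macrophage-like cells on CDA-HFD after thinning (0.597), and over all cells on ND with TMM.

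**Figure D3:**
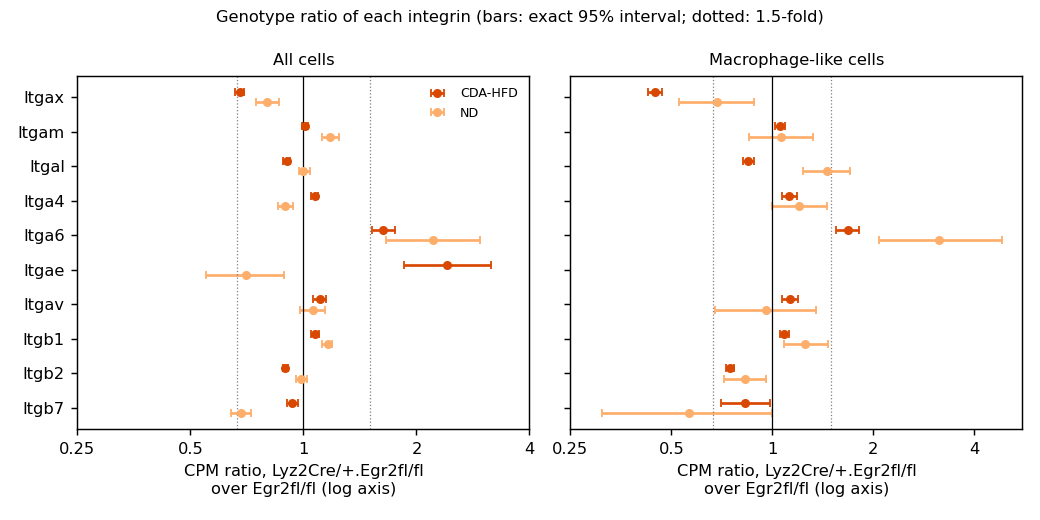
Genotype ratio, Lyz2Cre/+.Egr2fl/fl over Egr2fl/fl, of the members on a log axis, over all cells and in macrophage-like cells on CDA-HFD and ND, with exact 95% intervals for counting error and dotted lines at 1.5-fold. In macrophage-like cells on CDA-HFD Itgax lies at 0.448 and Itga6 at 1.68, and the members drawn between them run from 0.747 for Itgb2 to 1.13 for Itgav. Itgae had under 20 counts there and is not drawn.

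Itgax was set against each other member within the same cells, as the percent of Itgax counts in the sum of both genes, which does not depend on how the libraries were scaled. Against Itgam it made up 38.8% (38.3 to 39.3) over all cells of the Egr2fl/fl mouse on CDA-HFD and 29.8% (29.3 to 30.3) of those of the Lyz2Cre/+.Egr2fl/fl mouse, an odds ratio of 0.670 (0.648 to 0.692). In macrophage-like cells the percents were 44.3% and 25.3%, an odds ratio of 0.426 (0.401 to 0.453). Against Itgb2, its partner subunit, they were 27.5% and 18.6% in macrophage-like cells, an odds ratio of 0.600 (0.567 to 0.634). On CDA-HFD the odds of Itgax were lower with Cre, with an interval below 1, against 9 of 9 members over all cells and 8 of 8 in macrophage-like cells, where odds ratios ran from 0.267 against Itga6 to 0.600 against Itgb2. Against all genes with at least 100 counts the interval lay below 1 for 91.0% of 14926 genes over all cells and 98.7% of 11985 in macrophage-like cells, so most genes gave the same direction as the members. The same held against 5 of 7 members in Ly6Clo monocyte-like cells, 4 of 7 in cDC2-like cells, 2 of 3 in mature dendritic cell-like cells, 2 of 8 in Ly6Chi monocyte-like cells and 0 of 6 in neutrophil-like cells, beside 77.4%, 34.0%, 55.0%, 8.69% and 8.04% of all genes in these classes. In Ly6Chi monocyte-like cells the interval lay above 1 against 2 of 8 members, Itgal (1.22, 1.04 to 1.44) and Itgb7 (1.24, 1.05 to 1.46), beside 8.74% of all genes. On ND the interval lay below 1 against 7 of 9 members over all cells, 5 of 7 in macrophage-like cells, 4 of 7 in Kupffer cell-like cells and 6 of 6 in Ly6Chi monocyte-like cells, beside 71.9%, 56.1%, 67.1% and 98.4% of all genes. Over all cells it lay above 1 against 1 of 9 members, beside 2.55% of all genes. This was Itgb7 (1.18, 1.07 to 1.29), whose all-cell ratio of 0.681 was lower than that of Itgax, 0.801. The interval also lay above 1 against 6 of 6 members in Ly6Clo monocyte-like cells (1.47 to 2.32) and against Itga4, Itgb2 and Itgb7 of the 6 in cDC2-like cells (1.68, 1.38 and 1.46), where 82.4% and 65.6% of all genes gave an interval above 1. Whether the classes differ in this was not tested, since each rests on the same pair of mice.

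**Figure D4:**
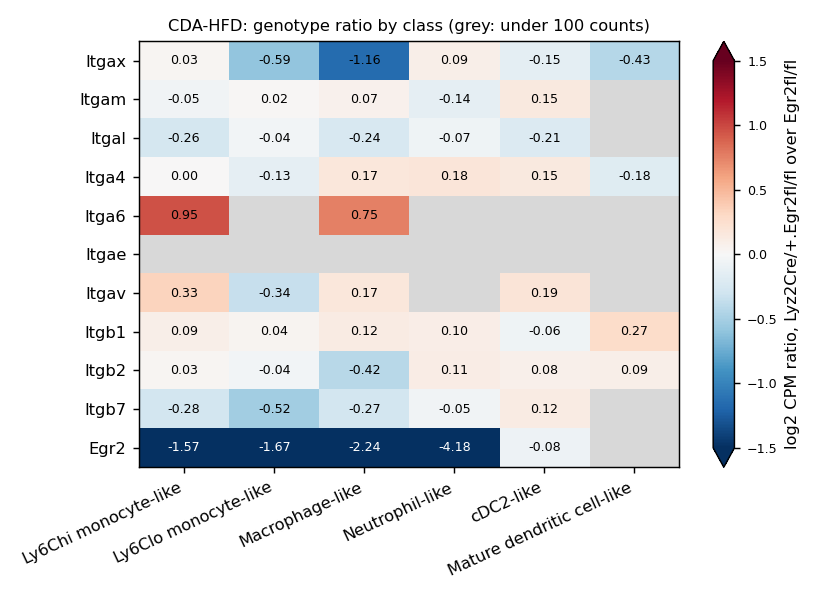
Log2 genotype ratio on CDA-HFD of the members and Egr2 (rows) in 6 marker-gated classes (columns), with grey where both mice together had fewer than 100 counts. Itgax is lowest in macrophage-like cells, at a ratio of 0.448, and Itga6 is the member above 1.5-fold there and in Ly6Chi monocyte-like cells.

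Diet was compared within each genotype. Over all cells 31.4% of genes in the Egr2fl/fl mice and 33.0% in the Lyz2Cre/+.Egr2fl/fl mice were past 1.5-fold between CDA-HFD and ND, so the members past that fold stood against a wide background, in which the median log2 ratio of all genes was -0.14 and -0.15. Kupffer cell-like cells gave 59.7% and 68.4% of the counts on ND and were scarce on CDA-HFD, at 14 and 35 cells, so these all-cell ratios compare different mixtures. In the Egr2fl/fl mice 4 of 10 members were past it, Itgax, Itgam and Itga6 higher on CDA-HFD and Itgae lower, and in the Lyz2Cre/+.Egr2fl/fl mice 6, with Itga4 also higher and Itgal also lower. Itgax was 2.55 and Itgam 2.56 times as high on CDA-HFD in the Egr2fl/fl mice, and 2.16 and 2.19 times in the Lyz2Cre/+.Egr2fl/fl mice. Within macrophage-like cells, whose hLAM markers summed to 597 and 742 CPM on ND and 4344 and 3966 CPM on CDA-HFD, the genotypes were less alike for Itgax, with a diet ratio of 1.41 in the Egr2fl/fl mice and 0.922 in the Lyz2Cre/+.Egr2fl/fl mice. Itgam was higher on CDA-HFD in both, by 1.65 and 1.64 times. Itgb7 was lower on CDA-HFD in both, with ratios of 0.364 and 0.535. Itga6 differed, with 1.49 and 0.794.

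The genes around the integrins were read in the same way, from lists of partners, as counts of genes past 1.5-fold between the CDA-HFD-fed mice over all cells, beside the 1.77% of all genes that were lower there and the 3.42% that were higher. With lists this short, 1 or 2 such genes are not a result about a list. Of 17 activators and adaptors that turn integrins on from inside the cell, 1 was higher, Fermt2 (kindlin-2) at 1.49 and 2.46 CPM, and 0 lower, with a median log2 ratio of 0.02 beside 0.03 for all genes. Tln1 (talin) had a ratio of 1.04 and Fermt3 (kindlin-3) of 1.01. Of the 15 ligands with enough counts, 0 were higher and 2 lower, the fibrinogen chains Fga (94 and 61 counts) and Fgg (103 and 64 counts), which are genes of hepatocytes. Fn1, the ligand fibronectin, was at 195 and 145 CPM over all cells and at 103 and 43.0 CPM in macrophage-like cells, ratios of 0.746 (0.729 to 0.764) and 0.419 (0.393 to 0.445). Icam1, a ligand of the beta2 pairs, had 0.821 over all cells and 0.970 (0.913 to 1.03) in macrophage-like cells. Other ligands were higher with Cre over all cells, short of 1.5-fold: Icam2 at 23.7 and 28.6 CPM and Thbs1 at 139 and 157 CPM. In macrophage-like cells Icam2 was at 32.1 and 32.6 CPM and Thbs1 at 122 and 116 CPM. Of the 8 other integrin subunits with enough counts, Itga1 was higher (1.58, 1.36 to 1.85) and Itgad, the beta2 partner encoded just downstream of Itgax at chr7:128154376-128223816, was lower (0.448, 0.309 to 0.643, from 97 and 46 counts). Itgad is a close relative of Itgax and reads may be shared between them, so its value is uncertain. The other protein-coding genes that reach within 100 kb of Itgax had ratios of 1.04 (Gm49368, which overlaps Itgam), 1.46 (Cox6a2, 1.23 to 1.74, from 219 and 339 counts), 0.877 (9130023H24Rik), 0.975 (Armc5) and 1.01 (Tgfb1i1). Of 5 genes of the Egr family and their Nab partners, Egr2 was lower and none was higher over all cells. In macrophage-like cells, where 2.20% of all genes were lower and 3.38% higher, Egr2 was lower and Egr3 higher, at 3.51 and 6.01 CPM from 116 and 200 counts (1.71, 1.36 to 2.17), Fn1 was the 1 of 10 ligands past the fold, and none of the 16 activators or 3 other subunits was.

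Siglecf and Clec4e were read with Itgax because the study names Siglecf as an Egr2 target, beside Itgax, and gates cells on CD11c and the Clec4e protein. Siglecf, whose protein was used to remove cells before sequencing, was at 4.47 and 1.68 CPM in the macrophage-like cells of the CDA-HFD-fed mice, from 148 and 56 counts, a ratio of 0.376 (0.271 to 0.514). In cDC2-like cells on CDA-HFD it was at 12.3 and 17.1 CPM, a ratio of 1.39 (1.03 to 1.90). The study calls Itgax and Siglecf known targets of Egr2 and reports both as repressed in its own bulk RNA-seq. The pair was thus picked with its direction known and is not independent evidence of it. Clec4e, which encodes Mincle, a lectin receptor for glycolipids and dying cells, was at 122 and 130.1 CPM in macrophage-like cells, a ratio of 1.07 (1.02 to 1.11). After thinning, 6.24% (5.06 to 7.60) of macrophage-like cells of the Egr2fl/fl mouse and 3.68% (2.82 to 4.71) of those of the Lyz2Cre/+.Egr2fl/fl mouse had both Itgax and Clec4e counts. Clec4e was found in 22.0% and 22.6% of the cells with Itgax, so the lower share of double-positive cells went with the lower share of Itgax-positive cells. Egr2 was found in 16.5% of the macrophage-like cells with Itgax and in 9.86% of those without it in the Egr2fl/fl mouse. In the Lyz2Cre/+.Egr2fl/fl mouse the shares were 6.04% (3.49 to 9.62) and 1.10% (0.616 to 1.81).

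The genes whose level was most like that of Itgax across 25 groups of class and mouse, among 11732 genes, were Ccnd2 (Pearson r = 0.825), Septin6 (0.761), Tes (0.735), Alcam (0.714), Cdc14a (0.706), Sh3bgrl3 (0.697), Bcl2a1d (0.695) and H2-Oa (0.693), on log2(CPM + 1). The groups share 4 mice and 1 library, and the values are a description. Among the members Itgae (0.243) and Itga4 (0.233) were nearest, Itgam was at 0.0744 and Itgav at -0.442, so no member followed Itgax closely across the classes. Egr2 had r = 0.387.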

How the data were processed

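Single-cell RNA-seq of sorted liver leukocytes of 4 hashtagged mice, pooled in 1 library, was used. The authors mapped reads to the GRCm38 transcriptome, assigned barcodes to mice by hashtag and used Seurat 4.1.1 in R 4.2.1, per the submitters' processing notes. For the CDA-HFD-fed Lyz2Cre/+.Egr2fl/fl mouse the label that ties hashtags to mice names the hashtag found in the matrix, while the cell loading step of the protocol writes another number. The former was used. The deposited matrix holds whole-number counts that were not normalized, and whether reads or unique molecules were counted is not given in the sources used here. Low values of some genes, gate markers among them, had been set to 0, but every member had 1 as its lowest count above 0. The 1392 doublets named by the authors were left out, as were 10 cells above 25% mitochondrial counts. No further doublet caller was run, so doublets within a mouse remain, and 7 hashtag columns of no mouse of the study were set aside.

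The members and lists were chosen with earlier results of these data known. A cell's score for a marker list was the mean of its log-normalized values, each divided by the 90th percentile of the marker's values above 0. The top class needed a score of 0.3 and a lead of 0.1, with Kupffer cell and macrophage lists taken as 1 family, and 3083 cells lay within 0.05 of a limit. Counts were summed by mouse and class of at least 50 cells. CPM carry exact Poisson intervals, ratios exact binomial split intervals, shares Clopper-Pearson intervals and odds ratios exact conditional ones, all at 95%. The gate, its cut-offs, the minimum of 100 counts of each gene for odds ratios, the split by hLAM and moKC scores, the cDC1-like values, the motifs and the look at genes around Itgax were chosen after values had been seen. The genes to be named were the members, the 8 genes most correlated with Itgax, and Egr2, Clec4e, Siglecf, Tln1 and Fermt3. From each partner list up to 4 genes with at least 500 counts and the largest log2 ratio in either direction were added, not all of which are given. Itgad, Egr3, Fermt2, Fga, Fgg and the protein-coding genes within 100 kb of Itgax were named after their values were seen, outside this rule. Lists of other integrin subunits, activators, ligands and the Egr family were counted against all genes. Alternatives were TMM scaling (edgeR 4.0.16), mean CPM per cell, thinning to 3000 counts, Seurat 5.3.0 clusters, stricter and looser gates, other limits on mitochondrial counts, hashtag share, fold and counts, and leaving out the 5% deepest cells. The ratio script was tested on simulated data. Python 3.11.15, numpy 2.4.6, scipy 1.17.1 and pandas 2.3.3 were used. Member coordinates are GENCODE's for GRCm38, and promoters RefSeq's, with an entry for 6 of 10 members; Itgal, Itga6, Itgae and Itgb2 had none.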

Additional observations from a re-analysis of the deposited data

Results flagged for a closer look

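Of 53 pairs of a member and a cell class (or all cells) that could be compared on both diets, 2 had genotype ratios on opposite sides of 1 with both intervals leaving out 1 and both ratios at least 5 to 4 in either direction, a limit chosen after values had been seen. That is 3.77% of the pairs, and 2.06% of 77524 pairs of any gene and class met the same rule. Itgax in Ly6Clo monocyte-like cells had a ratio of 0.664 on CDA-HFD and 1.79 on ND, the latter from 141 and 157 counts in 128 and 77 cells. In these ND-fed cells the 7 cDC2 markers summed to 18.6 and 89.9 CPM and the 9 T or NK cell markers to 79.5 and 0 CPM, and their part in the ratio was not tested. Itgae over all cells had 2.41 on CDA-HFD and 0.701 on ND, and the number of cDC1-like cells, which hold most Itgae counts in 3 of the 4 mice, differed in the same directions. The difference between the diets was not tested in either case, since each value rests on 1 mouse per group.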

How the results depend on the processing

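Every value rests on 1 mouse per group, so neither the spread between mice nor leaving out a mouse could be examined. Counts are few for Itgae and in several ND classes, such as the 13 Itgax counts of ND-fed Ly6Chi monocyte-like cells. The genotype ratio of Itgax over all cells on CDA-HFD, 0.676, was 0.658 with TMM scaling, 0.745 as a mean of per-cell CPM, 0.653 where the own hashtag made up 90% or more of a cell's hashtag counts, 0.696 without the 5% of cells with the most counts, 0.742 after thinning and 0.712 with equal class shares. In macrophage-like cells it was 0.490 after thinning instead of 0.448, and 0.622 with the cells between classes and of no class, a setting added after seeing the data. Itgax had the lowest ratio of the members other than Itgae in 9 of 9 settings over all cells and 13 of 13 in macrophage-like cells (0.436 to 0.622).

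The number of members past the fold on CDA-HFD was 1 instead of 2 at a 2-fold limit, beside 1.43% of all genes, and 3 with TMM, which added Itgax, beside 5.14%. On ND it was 3 at a fold limit of 5 to 4, beside 22.8% of all genes, and 2 with TMM, which added Itgb7, beside 7.86%, instead of 1. The percent of all genes past 1.5-fold was 13.4 with at least 20 counts and 1.98 with at least 500, instead of 5.19. The odds ratio of Itgax against Itgam, 0.670, was 0.775 after thinning over all cells, and a stricter gate took the macrophage value from 0.426 to 0.417. Itgax made up 32.4% and 27.0% of the pair in the Egr2fl/fl and the Lyz2Cre/+.Egr2fl/fl mouse after thinning, and 38.1% in the Egr2fl/fl mouse without the 5% of cells with the most counts. The cause of these shifts was not tested. Of 37 alternative values for Itgax and the counts of genes, 17 moved outside the counting interval or limit, and of 180 for the other members 41 did. The side of 1 changed for Itgam over all cells (1.01, with 0.982 under TMM and 0.958 both as a per-cell mean and after thinning) and for Itgae in macrophage-like cells (1.59 from 5 and 8 counts, 0.945 without the cells with the most counts). On ND, which is not among these values, equal class shares moved the ratio across 1 for Itgax (0.801 to 1.06), Itgae (0.701 to 1.29), Itga4 (0.895 to 1.04), Itgav (1.06 to 0.975) and Itgb2 (0.985 to 1.01), and took Itgal from 1.00 to 0.973. No paired analysis was possible because the groups hold 1 mouse each and no test was made.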
